A study of Mus musculus with 257 samples.

Results

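RNA sequencing of mouse medulloblastoma, an embryonal tumour of the cerebellum and brainstem, allowed a comparison of a model driven by Wnt signalling with a model driven by Sonic hedgehog (Shh) signalling. The members were taken by label, with earlier results of these data known. They are 5 BCP libraries labelled implants and 5 BPtch tumours labelled P30+ (postnatal day 30 or later), 10 of the 257 libraries of the series. Both groups carry Blbp-Cre (the B of the names), a Cre recombinase under the promoter of Fabp7 (Blbp), which is active in progenitors of the hindbrain. BCP adds the Wnt-model alleles of Ctnnb1, which encodes β-catenin, and Pik3ca, which encodes a catalytic subunit of the PI3 kinase. BPtch adds the Shh-model allele of Ptch1, the Shh receptor that holds the pathway off. Neither group carries a perturbed Ddx3x, per the series' design text, while the labels of the other tumour groups of the series name a floxed Ddx3x. The labels do not give the host, the site or the donor tumour of the implants, and all 5 implants share 1 code, DMP021, whose meaning they do not state. The BPtch tumours each carry a different animal number, and those of tumours 1, 2 and 3 also mark cerebellar libraries. For the implants, nothing in the labels says that the libraries came from separate tumours. Each p-value reflects only how far these libraries differ among themselves, which for the implants may be technical.

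As background, Wnt ligands bind Frizzled and LRP receptors and stabilise β-catenin, which then acts with TCF and LEF factors on target genes, among them feedback inhibitors of the pathway. Shh binds Ptch1, frees Smoothened and turns on Gli factors, whose targets include Gli1 and Ptch1 themselves. Shh-group medulloblastoma arises from granule neuron progenitors of the cerebellum, while Wnt-group medulloblastoma has been traced to the dorsal brainstem and is known for fenestrated, leaky vessels.

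Library totals were 15904360 to 26758718 counts in the implants and 18292552 to 73694147 in the BPtch tumours, and mitochondrial genes took 2.04 to 3.67% and 1.80 to 2.55% of the counts. BCP implant 5 stood apart from the other 4. Its level of Gabra6, a GABA receptor subunit of mature cerebellar granule neurons, was 575 counts per 1000000 counts of the library (CPM), against 0.485, 2.26, 7.55 and 0.848 CPM in implants 1 to 4 and a mean of 757 CPM in normal cerebellum of P30+. Its summed CPM over 18 Wnt target genes was 147, against 9758, 10742, 14711 and 9119 CPM in implants 1 to 4. List results are therefore given for all 5 implants and again without implant 5. BPtch tumours 3 and 5 also held Gabra6, at 146 and 97.6 CPM. Sex-linked genes differed between the groups as well: Xist, the RNA that silences 1 X chromosome in females, was at 1536 to 1706 CPM in implants 1 to 4, 7.44 CPM in implant 5, 175 CPM in BPtch tumour 1 and 1.60 to 8.67 CPM in the other BPtch tumours. The Y-linked Ddx3y was at 0.0386 to 0.503 CPM in the implants, 0.109 CPM in BPtch tumour 1 and 18.5 to 82.2 CPM in BPtch tumours 2 to 5. Model, implantation and sex cannot be told apart in this comparison.

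**Figure D1:**
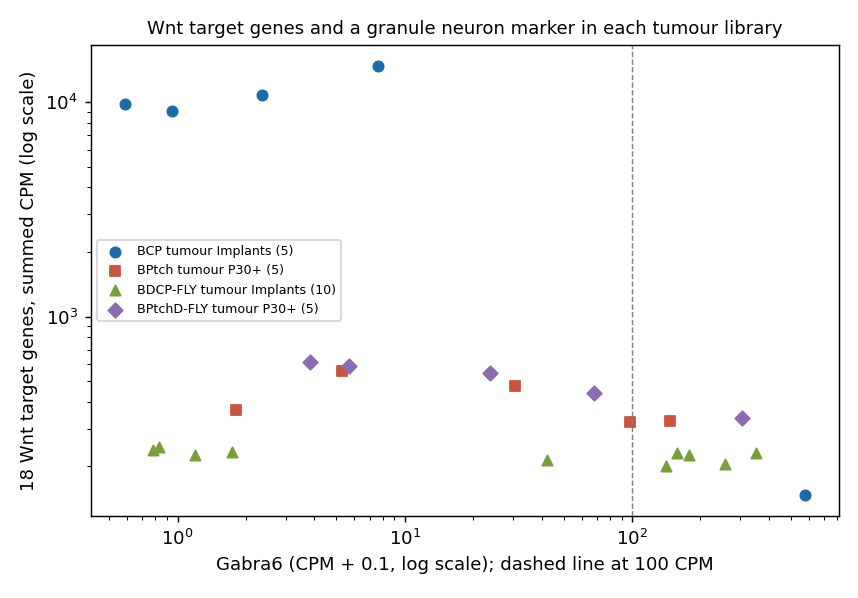
Summed CPM of 18 Wnt target genes against Gabra6 CPM in 5 BCP implants and 5 BPtch tumours (both axes log10, 1 point per library). Also drawn are 10 implants labelled BDCP-FLY and 5 BPtchD-FLY tumours, whose labels name a floxed Ddx3x. BCP implants 1 to 4 sit at 9119 CPM of Wnt targets or more and at 7.55 CPM of Gabra6 or less. BCP implant 5 lies at 147 CPM of Wnt targets and 575 CPM of Gabra6.

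In edgeR's quasi-likelihood test, 10066 of 18400 genes tested (54.7%) had a Benjamini-Hochberg adjusted p under 0.05, the threshold for calling a gene changed here. Of the genes tested, 28.5% were called higher in the BCP implants and 26.2% lower. Without implant 5, 11285 of 18693 genes (60.4%) were called, 29.9% higher and 30.5% lower. The calls made with all 5 implants overlapped the second set at 9543 genes, 94.8% of the first set and 84.6% of the second, all in the same direction. Since most genes were called, the counts of list members are read against these shares and against a median log2 fold change over all genes of 0.03 with implant 5 and −0.05 without it. Fold changes are log2 of BCP over BPtch, with their standard errors, and levels are CPM, which compares a gene between libraries but not with other genes. Fold changes use TMM normalisation factors, while CPM, and overlap between groups judged on CPM, use library totals. With library totals the median log2 fold change over all genes was −0.12, so CPM lean lower in the implants than the fold changes do.

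Genes known as targets of β-catenin were higher in the implants by a wide margin. Of the 18 listed, 14 were tested, 13 were called higher and none lower, with a median log2 fold change of 5.52. Without implant 5, 14 of 15 were called higher and the median was 6.68. The 1 tested member without a call was Lgr5, a receptor that marks several stem cell pools, at 7.55 to 20.9 CPM in the implants and 16.3 to 33.6 CPM in the BPtch tumours. Dkk1, Dkk4, Ascl2 and Cdx1 had too few counts to be tested with all 5 implants. In this bulk RNA a smaller number of cells of a type and less RNA per cell cannot be told apart, for these genes and for all that follow.

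Axin2, a scaffold of the β-catenin destruction complex and a standard readout of the pathway, was at 488, 534, 812, 502 and 19.0 CPM in implants 1 to 5 and at 30.2, 35.4, 32.7, 34.3 and 38.2 CPM in BPtch tumours 1 to 5. Implants 1 to 4 lay far above every BPtch tumour, and implant 5 lay below all of them. The log2 fold change was 3.95 ± 0.72 (adjusted p = 0.00127) and 4.25 ± 0.19 without implant 5 (adjusted p = 5.21e-07). Lef1, a DNA-binding partner of β-catenin and itself a target, read 128, 169, 229, 110 and 9.23 CPM against 1.02 to 1.91 CPM, with no overlap between the groups (log2 fold change 6.51 ± 0.76, adjusted p = 1.22e-04). Tcf7, the other such partner called here, read 167, 145, 259, 109 and 4.86 CPM against 1.59 to 2.08 CPM.

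Notum, a secreted enzyme that strips the lipid from Wnt ligands, showed one of the widest differences of all. Its levels were 384, 546, 683, 453 and 1.12 CPM in the implants and 0.328, 0.0971, 1.02, 0.163 and 0.449 CPM in the BPtch tumours (log2 fold change 10.23 ± 1.50, adjusted p = 3.82e-04). Its exons overlap those of Notumos and Myadml2os, and whether the counting used strand is not given in the sources used here. Tnfrsf19 (Troy), a receptor of the tumour necrosis factor family, was at 2370.1, 2212, 3555, 1871 and 24.6 CPM against 9.94 to 19.8 CPM, so that even implant 5 lay above the highest BPtch tumour. Sp5, a zinc finger factor that is an early Wnt target, read 145, 140.5, 213, 65.3 and 3.48 CPM against 0.271 to 0.907 CPM. Bambi, a decoy receptor that dampens TGF-β and BMP signals, differed less, at 28.4, 28.8, 44.8, 51.4 and 11.4 CPM against 4.31 to 6.70 CPM (log2 fold change 2.81 ± 0.37, adjusted p = 2.22e-04).

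Promoters of 3 of these targets are shown because their genes moved together over a wide range while their promoters differed in a feature a reader would look for, the core letters bound by TCF and LEF factors. The RefSeq table of GRCm38.p6 held promoters for 11 of the 18 genes, 17 in all. The letters CTTTGAA or CTTTGAT, searched on both strands, were found in 3 of these 17 promoters, those of Sp5, Tnfrsf19 and Dkk1, and in 7.48% of all 32851 promoters of that table. The 3 sequences are the 250 bases before the start of Sp5 (chr2:70474673-70474922, plus strand, with a match 104 bases before the start), of 1 of the 2 promoters of Tnfrsf19 (chr14:61037988-61038237, minus strand, with a match on the opposite strand 202 bases before the start) and of Axin2 (chr11:108920099-108920348, plus strand, with no match in this window). Each reads 5′ to 3′ on the gene's strand, and capitals mark the match.
Sp5: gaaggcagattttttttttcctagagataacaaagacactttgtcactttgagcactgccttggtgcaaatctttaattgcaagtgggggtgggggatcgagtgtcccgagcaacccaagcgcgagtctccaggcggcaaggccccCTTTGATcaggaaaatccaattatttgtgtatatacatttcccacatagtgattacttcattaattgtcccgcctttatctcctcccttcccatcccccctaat
Tnfrsf19: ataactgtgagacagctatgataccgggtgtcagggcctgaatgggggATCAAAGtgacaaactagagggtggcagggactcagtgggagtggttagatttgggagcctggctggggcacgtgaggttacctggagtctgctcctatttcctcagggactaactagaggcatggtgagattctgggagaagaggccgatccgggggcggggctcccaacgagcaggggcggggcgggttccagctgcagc
Axin2: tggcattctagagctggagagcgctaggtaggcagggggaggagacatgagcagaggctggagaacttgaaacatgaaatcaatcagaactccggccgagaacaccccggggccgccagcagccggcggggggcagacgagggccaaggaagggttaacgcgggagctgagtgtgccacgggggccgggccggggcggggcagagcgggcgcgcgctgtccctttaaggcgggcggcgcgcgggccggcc
A match of 7 letters describes the sequence and is no evidence of binding. Most of the 11 genes searched have no match in this window, and the rest of the 18 were not searched. The Gli letters TGGGTGGTC, searched in the same way, were in none of the 9 promoters matched for 6 Shh target genes and in 0.225% of all promoters.

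**Figure D2:**
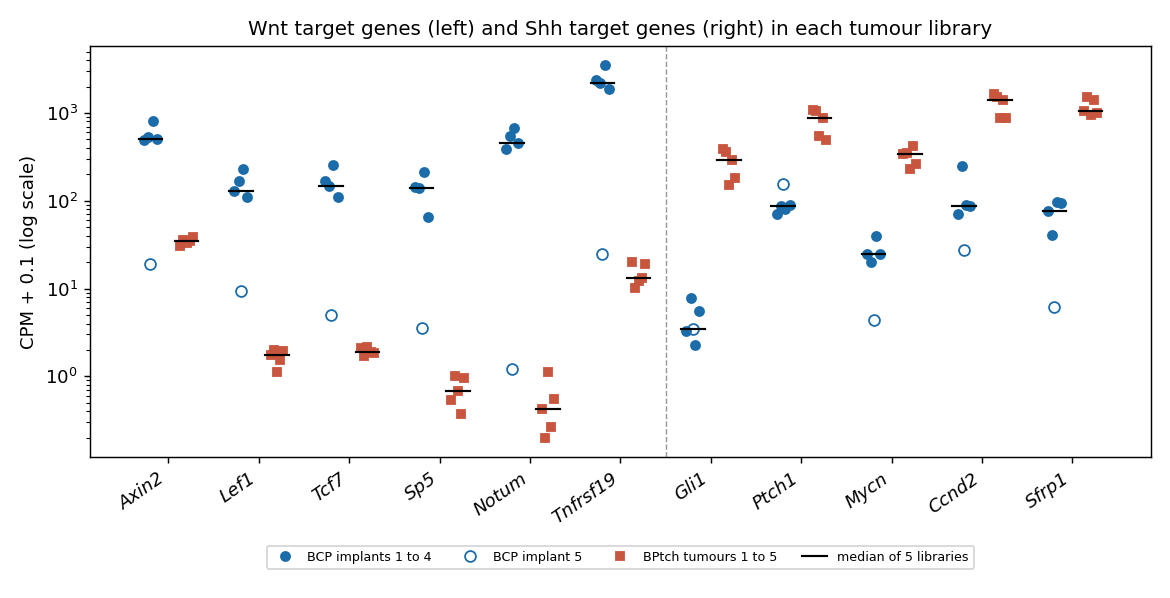
CPM plus an offset of 0.1 (log10 axis) of 6 Wnt target genes and 5 Shh target genes in each of the 5 BCP implants and 5 BPtch tumours, with points for libraries and bars for group medians. Gli1, Ptch1, Mycn, Ccnd2 and Sfrp1 are lower in all 5 implants, while for Axin2 implant 5 falls below the BPtch tumours.

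Wnt ligands and agonists were also higher. Of 24 listed, 16 were tested, 10 were called higher and none lower (median log2 fold change 2.24), and without implant 5 the count was 12 of 18 (median 3.58). Wnt16 was at 677, 742, 913, 643 and 0.710 CPM in the implants and at 0.219, 0.0648, 1.07, 0.0407 and 0.0321 CPM in the BPtch tumours (log2 fold change 11.42 ± 1.82, adjusted p = 6.12e-04). Implants 1 to 4 thus held Wnt16 far above the BPtch tumours, whereas implant 5 fell within the BPtch range. Wnt5a, a ligand known mainly for β-catenin-independent signalling, read 200, 313, 492, 142 and 9.38 CPM against 3.43 to 8.36 CPM. Rspo1, an agonist that keeps Wnt receptors at the cell surface, read 60.9, 20.1, 163, 30.2 and 1.57 CPM against 0 to 0.244 CPM. Wnt6 read 17.8, 67.2, 67.5, 16.2 and 1.01 CPM against 0.0407 to 0.630 CPM. Wnt11 (log2 fold change 4.28 ± 0.61) and Wnt5b (2.58 ± 0.47) were called higher from lower levels, Wnt11 never passing 2.25 CPM.

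Receptors were mixed. Of 17 tested, 10 were called higher and 3 lower (median log2 fold change 1.24), and without implant 5, 11 higher and 3 lower. Among the Frizzleds, Fzd8 (log2 fold change 3.50 ± 0.40), Fzd5 (3.02 ± 0.38), Fzd4 (2.99 ± 0.38) and Fzd6 (2.67 ± 0.37) were higher, with no overlap between the groups. Fzd3, which is known for axon guidance, was lower, at 7.75 to 21.8 CPM in the implants and 41.3 to 57.7 CPM in the BPtch tumours (log2 fold change −1.52 ± 0.26, adjusted p = 8.93e-04). Lgr4, the R-spondin receptor, read 77.9, 87.8, 131, 113 and 37.1 CPM against 30.3 to 34.4 CPM.

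Secreted Wnt inhibitors split by gene. Of 12 tested, 8 were called higher and 3 lower (median log2 fold change 3.87), and without implant 5, 9 of 13 higher and 3 lower. Dkk2, which blocks the LRP co-receptors, read 218, 96.7, 307, 539 and 0.972 CPM against 0.273 to 1.21 CPM (log2 fold change 8.67 ± 1.37, adjusted p = 5.65e-04). Its relative Dkk3 read 423, 405, 614, 639 and 30.2 CPM against 9.29 to 40.1 CPM. Both had implant 5 inside the BPtch range. Those called lower were Sfrp1, Sfrp2 and Draxin. Draxin, a guidance cue that also binds LRP6, was at 3.70, 5.91, 3.67, 5.82 and 2.84 CPM in the implants and at 758, 786, 454, 960 and 573 CPM in the BPtch tumours (log2 fold change −7.19 ± 0.35, adjusted p = 6.46e-06). Sfrp1, a secreted Frizzled-like inhibitor that is also a Shh target, read 76.3, 41.2, 97.9, 93.9 and 6.09 CPM against 960 to 1530.0 CPM. Here implant 5 sat with the other implants, and the groups did not overlap for either gene.

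Shh target genes were lower in the implants. All 12 listed were tested, 7 were called lower and none higher, and the median log2 fold change was −2.54 with and without implant 5. The 5 without a call were Hhip, Ccnd1, Igf2, Nkx2-2 and Bcl2. Gli1, the transcription factor most widely used as the readout of the pathway, was at 3.17, 7.73, 2.20, 5.40 and 3.33 CPM in the implants and at 393, 356, 149, 288 and 184 CPM in the BPtch tumours. The lowest BPtch tumour was far above the highest implant (log2 fold change −5.84 ± 0.45, adjusted p = 2.47e-05; −5.77 ± 0.49 without implant 5). Its exons overlap those of Arhgap9. Ptch1, the receptor gene that carries the Shh-model allele, read 70.1, 88.1, 81.2, 89.4 and 154 CPM against 1088, 1063, 547, 880 and 496 CPM (log2 fold change −2.94 ± 0.31).

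Mycn, a Myc family factor of granule progenitors, was at 24.6, 20.1, 39.4, 24.6 and 4.34 CPM against 231 to 415 CPM (log2 fold change −3.67 ± 0.50, adjusted p = 2.59e-04). Ccnd2, a cyclin that drives exit from G1, read 69.9, 252, 89.2, 86.4 and 27.5 CPM against 867 to 1633 CPM. Implant 2 was the highest of the implants for Ccnd2 yet stayed below every BPtch tumour.

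Components of the Shh pathway moved less than its targets. Of 14 tested, 3 were called higher and 2 lower (median log2 fold change −0.06), and 4 and 2 without implant 5. Sufu, an inhibitor of Gli factors, was lower, at 32.8 to 51.8 CPM against 171 to 246 CPM (log2 fold change −2.23 ± 0.18, adjusted p = 3.24e-05), and so was the activator Gli2, whose call was close to the threshold (−1.56 ± 0.59, adjusted p = 0.0440). The repressor Gli3 was higher, at 46.3, 42.7, 66.9, 39.6 and 6.54 CPM against 28.9, 1.23, 6.30, 0.841 and 3.11 CPM, a difference also close to the threshold (2.51 ± 0.97, adjusted p = 0.0488). The call of Gli2 was lost when implant 1, 2 or 4 or BPtch tumour 1, 2 or 4 was left out (adjusted p up to 0.104), and that of Gli3 without any of implants 1 to 4 or BPtch tumours 2 to 5 (up to 0.0973). Cdon, a Shh co-receptor, was at 40.7 to 155 CPM against 1.07 to 18.7 CPM. Disp1, which releases the ligand from cells, was at 34.2 to 65.8 CPM in implants 1 to 4, 4.90 CPM in implant 5 and 6.10 to 9.29 CPM in the BPtch tumours.

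Genes of granule neuron progenitors were lower in the implants in nearly every case. All 14 were tested, 11 were called lower and 1, Meis2, higher (median log2 fold change −3.18), and without implant 5, 12 were lower and 1 higher (median −5.45). Atoh1, the factor that specifies the granule lineage, was at 0.132, 0.692, 0.0490, 0.0386 and 0.411 CPM in the implants and at 94.0, 104, 65.1, 184 and 67.6 CPM in the BPtch tumours (log2 fold change −8.54 ± 0.71, adjusted p = 3.27e-05). The implants held 27 counts of Atoh1 in total, the BPtch tumours 21963. Nhlh1, a neurogenic helix-loop-helix factor, read 0.231 to 1.01 CPM against 205 to 265 CPM. Barhl1, a homeobox factor of granule cells, read 0.793, 1.76, 0.539, 1.77 and 16.0 CPM against 368 to 482 CPM, with implant 5 the highest of the implants. Insm1, which promotes neurogenic divisions, read 0.931 to 1.64 CPM in 4 implants, 16.2 CPM in implant 2 and 342 to 508 CPM in the BPtch tumours. Meis1 was lower by less, at 40.7 to 77.7 CPM against 218 to 243 CPM (log2 fold change −1.75 ± 0.18).

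Genes of DNA replication and mitosis were lower too. All 18 listed were tested and all 18 were called lower, with a median log2 fold change of −2.07, and of −1.82 without implant 5. Mki67, a marker of cycling cells, was at 212, 148, 321, 157 and 29.4 CPM in the implants and at 1106, 1231, 739, 811 and 641 CPM in the BPtch tumours (log2 fold change −2.22 ± 0.52, adjusted p = 0.00468; −1.96 ± 0.31 without implant 5). No implant reached the lowest BPtch tumour. Mcm6, a subunit of the replicative helicase, read 20.3 to 70.5 CPM against 285 to 557 CPM, Pcna, the sliding clamp, 49.7 to 70.7 CPM against 177 to 310.2 CPM, and Aurka, a mitotic kinase, 3.21 to 25.7 CPM against 44.0 to 87.7 CPM. Normal cerebellum of P30+ had a mean Mki67 of 1.25 CPM, below every tumour.

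Factors of the rhombic lip and the dorsal brainstem, the region to which the Wnt group has been traced, were mixed with a tilt to higher. Of 21 listed, 13 were tested, 6 were called higher and 3 lower (median log2 fold change 2.01), and without implant 5, 8 of 14 higher and 3 lower. Without the low-count filter 12 were called higher. A member nearly absent from the BPtch tumours could only be called higher. Lhx9, a LIM-homeobox factor of dorsal interneuron precursors, was at 468, 248, 472, 628 and 1.49 CPM in the implants and at 0.437, 0.162, 0.678, 0.122 and 0.0642 CPM in the BPtch tumours (log2 fold change 10.59 ± 1.49, adjusted p = 3.07e-04). Implants 1 to 4 were far above BPtch, and implant 5 was above it by a small margin. Phox2a, a factor of noradrenergic and cranial motor neurons, read 88.9, 60.8, 174, 44.8 and 0.486 CPM, whereas the 5 BPtch libraries held 3 counts between them. The ratio of pooled levels was 4016 with a 95% counting interval of 1374 to 19478, and the fitted fold change of such a gene depends on the prior count. The exons of Phox2a overlap those of Inppl1.

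Neurog2, a proneural factor, read 7.02 to 37.4 CPM in implants 1 to 4, 1.05 CPM in implant 5 and 0 to 0.164 CPM in the BPtch tumours. Msx1, a roof plate factor, was higher by 5.24 ± 0.76 (log2 fold change). The 3 called lower included Onecut2 (1.39 to 4.26 CPM against 27.2 to 44.9 CPM) and Olig3, which marks the rhombic lip in the embryo. Olig3 was at 0.132, 0.126, 0.0490, 0.231 and 0 CPM in the implants and at 1.64, 1.62, 3.00, 0.733 and 9.43 CPM in the BPtch tumours (log2 fold change −4.71 ± 0.89, adjusted p = 0.00152). Of 14 Hox genes, which pattern the hindbrain behind the cerebellum, only Hoxb3 had enough counts to be tested. It was at 10.2, 3.27, 0.588, 15.2 and 1.42 CPM against 0.204 to 0.449 CPM (log2 fold change 4.23 ± 0.84, adjusted p = 0.00207), and the summed CPM over the 14 Hox genes varied from 2.60 CPM in implant 3 to 131 CPM in implant 4. The exons of Hoxb3 overlap those of Hoxb3os. The low count of tested Hox genes depended on the filter. Without it, in DESeq2 and in a fit of all tumour groups, 12 of the 14 were called higher. The count was 9 when implant 3 or any BPtch tumour was left out, and none was called lower under any of these. The 14 genes summed to only 0.929 to 1.48 CPM in the BPtch tumours. A Hox gene could therefore hardly be called lower, so the direction of these calls was fixed in advance.

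Markers of choroid plexus epithelium, which makes the cerebrospinal fluid, were high in implants 1 to 4. Of 12 listed, 11 were tested and 8 called higher with none lower (median log2 fold change 4.66), and without implant 5, 10 of 11 (median 4.94). Aqp1, a water channel, read 838, 565, 859, 311 and 3.70 CPM against 0.834 to 2.10 CPM (log2 fold change 8.61 ± 1.22, adjusted p = 3.23e-04). Clic6, a chloride channel protein, read 214, 481, 433, 119 and 1.16 CPM against 2.92 to 16.1 CPM. Sostdc1, a secreted inhibitor of BMP and Wnt signals, read 38.4, 74.0, 161, 66.0 and 0.336 CPM against 0.0642 to 0.484 CPM. Enpp2 (autotaxin) read 1989, 585, 251, 1835 and 117 CPM against 25.0 to 62.5 CPM. Ttr, the most abundant transcript of that epithelium and looked up after the other values were seen, did not follow them: it was at 3.88, 16.2, 3.72, 1901 and 20.7 CPM in the implants and 0.570 to 19.1 CPM in the BPtch tumours. Only implant 4 was high, and without it the log2 fold change of Ttr was 0.81 and not called (adjusted p = 0.449), against 5.96 ± 2.00 (adjusted p = 0.0277) with all 5, and the call was also lost without BPtch tumour 1, 2, 4 or 5.

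Vessel genes were higher in the implants, implant 5 included. Of 12 general endothelial markers, all were tested, 11 were called higher and 1 lower (median log2 fold change 2.20, and 2.28 without implant 5 with the same counts). For all 12 the groups did not overlap, which held for 41.9% of all genes tested, 15.5% in the higher direction and 26.4% in the lower. Cdh5 (VE-cadherin), the endothelial junction protein, was at 41.4, 47.2, 65.1, 64.1 and 42.5 CPM in the implants and at 8.09, 14.5, 10.4, 8.49 and 8.09 CPM in the BPtch tumours (log2 fold change 2.54 ± 0.23, adjusted p = 4.23e-05). Egfl7, a vessel matrix protein, read 36.8, 29.3, 27.1, 44.0 and 30.3 CPM against 6.23 to 8.63 CPM. Implant 5 here lay among the other implants. The VEGF receptor Flt1 (2.03 ± 0.22) and the angiopoietin receptor Tek (1.85 ± 0.15) were higher as log2 fold changes. The 1 member called lower was Sox18, at 10.3 to 17.3 CPM against 71.9 to 183 CPM.

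Genes of permeable and angiogenic vessels were higher as well. Of 11 tested, 9 were called higher and none lower (median log2 fold change 2.34), and 9 higher and 1 lower without implant 5. Plvap, which forms the diaphragms of fenestrae and is kept low in vessels with a barrier, was at 17.6, 36.7, 37.8, 86.4 and 21.3 CPM in the implants and at 1.48, 1.07, 4.16, 1.44 and 3.85 CPM in the BPtch tumours (log2 fold change 4.22 ± 0.56, adjusted p = 2.42e-04). Normal cerebellum of P30+ had a mean of 24.2 CPM of Plvap, within the range of the implants. Vegfa, the main angiogenic ligand, read 175, 156, 179, 299 and 118 CPM against 32.8 to 51.6 CPM. Vwf, the von Willebrand factor, read 58.9 to 196 CPM against 12.1 to 29.2 CPM, with implant 5 the highest.

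Genes of the blood-brain barrier were not lower. Of 16 tested, 8 were called higher and none lower, both with all 5 implants (median log2 fold change 0.95) and without implant 5 (0.76), smaller medians than those of the general endothelial list. Ocln, a tight junction protein, read 13.6 to 40.6 CPM against 1.99 to 6.34 CPM (log2 fold change 2.80 ± 0.43, adjusted p = 4.70e-04). Abcb1a, a drug efflux pump, was at 17.1 to 42.9 CPM against 6.35 to 16.8 CPM. Slc2a1, the glucose transporter of barrier vessels, was at 71.5, 63.9, 40.4, 69.2 and 178 CPM against 30.6 to 40.7 CPM, a log2 fold change of 1.36 ± 0.34, and of 0.90 ± 0.17 without implant 5.

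Genes of mural cells and fibroblasts were mostly higher too. Of 11 mural markers, 10 were called higher and none lower (median log2 fold change 2.51, and 2.68 without implant 5). Pdgfrb, the receptor that recruits pericytes, read 49.5, 68.5, 78.1, 84.5 and 29.4 CPM against 7.92 to 17.8 CPM, and Anpep (CD13) read 29.8 to 99.5 CPM against 3.82 to 5.59 CPM. Acta2, smooth muscle actin, was at 44.2 to 106 CPM in implants 1 to 4, 6.28 CPM in implant 5 and 2.86 to 6.05 CPM in the BPtch tumours. Of 12 meningeal and fibroblast markers, 11 were called higher and 1, Foxd1, lower (median log2 fold change 3.33, and 3.56 without implant 5). Col1a1, the main fibrillar collagen, read 484, 326, 494, 964 and 31.5 CPM against 5.44 to 8.69 CPM (log2 fold change 6.21 ± 0.76, adjusted p = 1.57e-04). Postn (periostin) varied most, at 652, 567, 280.2, 2705 and 6.39 CPM against 1.60 to 4.24 CPM, and Dcn (decorin) read 1776 to 3264 CPM in implants 1 to 4, 18.2 CPM in implant 5 and 5.37 to 26.8 CPM in the BPtch tumours. The summed level of the fibroblast list was 548 CPM in implant 5, between the 4799 to 9199 CPM of implants 1 to 4 and the 158 to 260.4 CPM of the BPtch tumours. All 5 blood markers, haemoglobins and Alas2, were called higher, and their summed level ran from 22.8 to 366 CPM in the implants and from 12.8 to 44.5 CPM in the BPtch tumours. Without implant 2, 3 of the 5 were called. The part of blood and of host tissue in the vessel results was not tested.

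**Figure D3:**
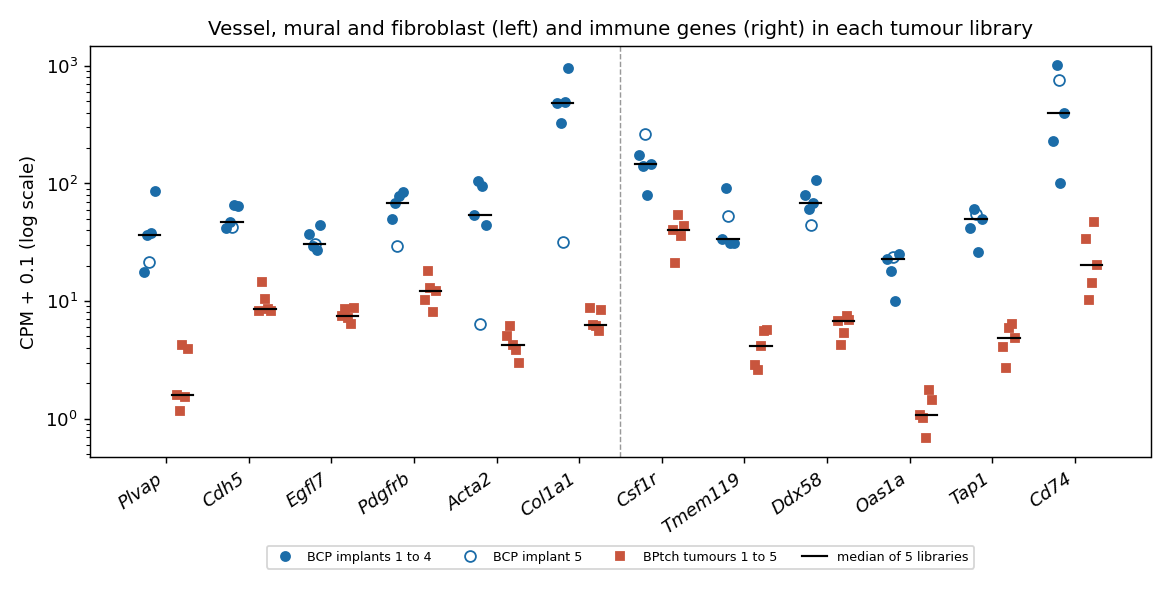
CPM plus an offset of 0.1 (log10 axis) of 6 vessel and stromal genes and 6 immune genes in each of the 5 BCP implants and 5 BPtch tumours, with points for libraries and bars for group medians. Plvap, Cdh5 and Egfl7 are higher in all 5 implants, and for Acta2 and Col1a1 implant 5 is the lowest implant.

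Immune genes were higher as well, again with implant 5 among the high libraries. All 14 interferon response genes were called higher, with a median log2 fold change of 3.18, and of 3.02 without implant 5. For 12 of the 14 the groups did not overlap. Their summed level was 570.5, 329.5, 207, 602 and 596 CPM in the implants and 65.2, 40.2, 61.0, 93.1 and 78.9 CPM in the BPtch tumours. Ddx58 (RIG-I), a sensor of viral RNA, read 79.5, 60.5, 67.6, 106 and 43.8 CPM against 4.11 to 7.33 CPM (log2 fold change 3.71 ± 0.27, adjusted p = 1.88e-05). Oas1a, which makes the messenger that activates RNase L, read 22.6, 18, 9.90, 24.9 and 23.5 CPM against 0.581 to 1.64 CPM. Irf7, the factor that amplifies the response, read 12.9 to 74.3 CPM against 0.939 to 4.80 CPM.

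Antigen presentation genes had the same direction. All 12 listed genes were called higher (median log2 fold change 2.81, and 2.71 without implant 5). Tap1, the peptide transporter of class I presentation, was at 41.5, 60.3, 26.3, 49.8 and 55.3 CPM against 2.62 to 6.27 CPM (log2 fold change 3.45 ± 0.29, adjusted p = 3.54e-05), and shares exonic positions with Psmb9. Cd74, the invariant chain of class II, read 232, 1025, 100.3, 399 and 762 CPM against 10.2 to 47.4 CPM, and Ciita, the class II transactivator, 2.60 to 22.1 CPM against 0.486 to 1.29 CPM. For these genes implant 3 was the lowest of the implants and implant 2 the highest for both class II genes.

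Of 17 microglia and macrophage markers, 9 were called higher and none lower (median log2 fold change 1.33), and 9 higher and 1 lower without implant 5. Csf1r, the growth factor receptor of these cells, read 176, 142, 80.0, 147 and 266 CPM against 21.2 to 53.4 CPM (log2 fold change 2.22 ± 0.32, adjusted p = 3.47e-04). Tmem119, a marker of resident microglia, read 31.3 to 91.4 CPM against 2.49 to 5.62 CPM, and Ccr2, a receptor of recruited monocytes, 9.51 to 67.5 CPM against 1.13 to 4.51 CPM. Of 14 lymphocyte markers only 3 had enough counts to be tested, and only Lck, a kinase of T cells, was called higher, at 2.33 to 8.17 CPM against 0.259 to 0.760 CPM. Without the low-count filter 9 of the 14 were called higher, and 2 to 5 when implant 3, implant 4 or any BPtch tumour was left out. The lymphocyte list summed to 4.11 to 10.7 CPM in the BPtch tumours, which left little room for a member to be called lower. The summed level of the whole microglia list was 583 to 3691 CPM in the implants and 607 to 1127 CPM in the BPtch tumours, so that implant 3 fell below the lowest BPtch tumour. The part of these cells in the interferon and antigen presentation results was not tested.

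**Figure D4:**
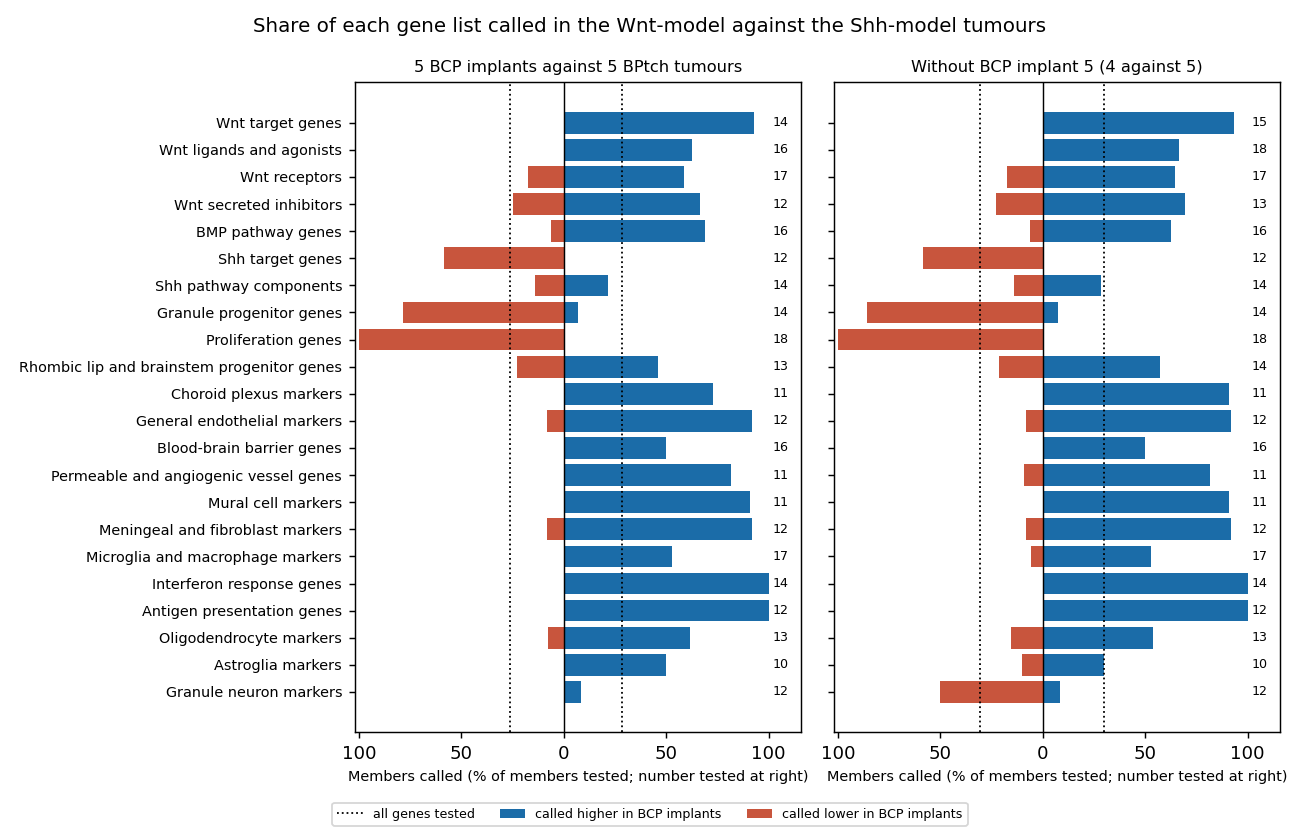
Share of tested members called higher or lower in the BCP implants for a selection of the gene lists (x axis in percent). All 5 implants are on the left, and the right is without implant 5. Lists not drawn include FOXO targets, p53 targets, radial glia and pan-neuronal genes, which were called in both directions. Dotted lines mark the shares over all genes, 28.5% higher and 26.2% lower on the left and 29.9% and 30.5% on the right; proliferation genes lie wholly on the lower side and interferon genes wholly on the higher side.

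Glial genes varied among the implants. Of 10 astroglia markers, 5 were called higher and none lower, and 3 and 1 without implant 5. Gja1 (connexin 43) was at 439, 231, 407, 838 and 172 CPM against 7.64 to 53 CPM (log2 fold change 3.98 ± 0.62, adjusted p = 5.45e-04). Gfap, the astrocyte intermediate filament, was at 1397, 184, 121, 443 and 2564 CPM against 194 to 259 CPM, overlapping the BPtch range. Its log2 fold change was 2.23 ± 0.74 (adjusted p = 0.0270) with all 5 implants and 1.43 ± 0.61 (adjusted p = 0.0658), without a call, when implant 5 was left out. The call of Gfap was also lost without implant 1 or any BPtch tumour but number 3, and the list count was 2 or 3 without implant 1 or BPtch tumour 1, 2 or 4 and 8 without implant 3. Of 13 oligodendrocyte markers, 8 were called higher and 1 lower, and 7 and 2 without implant 5. Mag, a myelin adhesion protein, read 247, 122, 1.91, 135 and 149 CPM against 4.18 to 40.5 CPM. Implant 3 held Mag below the lowest BPtch tumour, and the call was lost when implant 1, BPtch tumour 1 or BPtch tumour 4 was left out (adjusted p up to 0.0555). The list count fell to 3 without any of implant 1, BPtch tumour 1 or BPtch tumour 4 and to 4 without BPtch tumour 2. Olig2, a factor of the oligodendrocyte lineage that Shh tumours also express, was lower (log2 fold change −2.37 ± 0.70, adjusted p = 0.0160).

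Neuronal genes were called in both directions. Of 12 pan-neuronal genes, 2 were called higher and 5 lower, and 2 and 7 without implant 5. The number lower was 3 without implant 1, BPtch tumour 2 or BPtch tumour 5, and the number higher 1 without implant 1, 2 or 4 or BPtch tumour 1, 2 or 4. Dcx (doublecortin), of migrating young neurons, was at 15.6, 7.92, 2.60, 11.5 and 10.8 CPM in the implants and at 621, 880, 978, 654 and 937 CPM in the BPtch tumours (log2 fold change −6.24 ± 0.47, adjusted p = 2.03e-05). Tubb3, a neuronal tubulin, was lower by less (log2 fold change −1.91 ± 0.39). Nefm, a neurofilament of mature axons, was higher, at 322, 383, 1.91, 228 and 385 CPM against 3.42 to 55.9 CPM, with implant 3 below every BPtch tumour. The glycine transporter Slc6a5, of inhibitory neurons of the hindbrain and cerebellum, read 144, 120.2, 0.980, 94.4 and 48.9 CPM against 0.434 to 10.5 CPM, and again implant 3 held little. Lhx1, a factor of Purkinje cells and interneurons, was lower, at 1.22 to 2.39 CPM in implants 1 to 4, 30.01 CPM in implant 5 and 135 to 205 CPM in the BPtch tumours.

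Markers of mature cerebellar neurons depended on implant 5. Of 12 granule neuron markers, 1 (Etv1) was called higher and none lower with all 5 implants (median log2 fold change 0.89), against 1 higher and 6 lower without implant 5 (median −2.28). Rbfox3 (NeuN) was at 31.6, 21.3, 3.87, 33.0 and 310.0 CPM against 209 to 255 CPM, a log2 fold change of −1.38 ± 0.89 (adjusted p = 0.212) with implant 5 and −3.20 ± 0.51 (adjusted p = 5.32e-04) without it. Gabra6 itself went from 1.22 ± 1.82 (adjusted p = 0.589) to −4.15 ± 1.37. That fall was built in, since implant 5 was left out by its Gabra6 while BPtch tumour 3, at 146 CPM, was kept. The calls of the other granule neuron and Purkinje markers without implant 5 carry the same limit. Of 11 Purkinje markers none was called with all 5 implants, and 4 were called lower without implant 5. The summed level of the granule neuron list was 5555 CPM in implant 5, 216 to 292 CPM in implants 1 to 4 and 470 to 1994 CPM in the BPtch tumours.

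Genes of BMP signalling, a pathway active in the roof plate and choroid plexus, were mostly higher in the implants. Of 16 genes tested, 11 were called higher and 1, Id2, lower (median log2 fold change 2.36), and 10 and 1 without implant 5. Bmp2 was at 83.9, 90.5, 89.8, 106 and 3.55 CPM against 0.109 to 1.03 CPM (log2 fold change 7.74 ± 0.99, adjusted p = 1.92e-04), and Bmp4 at 103, 56.0, 174, 98.0 and 2.69 CPM against 0.0648 to 0.770 CPM. Id3, a target of the pathway, read 250, 280, 469, 281 and 42.2 CPM against 7.09 to 23.1 CPM, and Smad6, an inhibitor induced by it, 13.2, 20.6, 30.6, 16.0 and 1.83 CPM against 0.227 to 0.601 CPM. Implant 5 lay between the other implants and the BPtch tumours for these 4 genes. Bambi, given above, is induced by both pathways.

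Among genes of radial glia and stem cells, 3 of 13 tested were called higher and 2 lower, and 4 each without implant 5. Notch1 (57.3 to 153 CPM against 18.4 to 29.7 CPM) and the intermediate filament Vim (698 to 1403 CPM against 160 to 360.1 CPM) were higher. The RNA-binding protein gene Msi1 (log2 fold change −1.61 ± 0.20) and Sox9 (−2.05 ± 0.42) were lower. Fabp7, whose promoter drives the Cre of both models, was at 51.7, 5.60, 6.22, 19.2 and 59.2 CPM against 50.1 to 84.6 CPM (log2 fold change −1.25 ± 0.62, adjusted p = 0.111; −1.69 ± 0.62 without implant 5, adjusted p = 0.0378).

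Genes that FOXO factors activate when PI3 kinase signalling is low showed no single direction: 5 of 12 were called higher and 2 lower, and 5 and 4 without implant 5. Cdkn1b (p27), a cell cycle inhibitor, was lower, at 67.6 to 114 CPM against 258 to 391 CPM (log2 fold change −1.72 ± 0.18, adjusted p = 8.97e-05), and so was Ccng2 (−1.59 ± 0.20), while Sesn3 was higher (1.80 ± 0.27). Of 12 p53 target genes, 3 were called higher and 1 lower, and 3 each without implant 5. Ccng1 was higher by a small margin (0.89 ± 0.16, adjusted p = 0.00129) and the ectodysplasin receptor gene Eda2r lower (−1.78 ± 0.43). Trp53 itself was lower, at 35.8 to 87.2 CPM against 110.2 to 189 CPM (log2 fold change −1.10 ± 0.26, adjusted p = 0.00543).

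The genes altered in the models moved little at the level of total RNA, Ptch1 aside. Ctnnb1 was at 845, 1265, 1222, 787 and 495 CPM in the implants and at 685 to 924 CPM in the BPtch tumours (log2 fold change 0.35 ± 0.26, adjusted p = 0.267; 0.51 ± 0.20 without implant 5, adjusted p = 0.0459). Pik3ca was at 107 to 142 CPM against 143 to 161 CPM (log2 fold change −0.07 ± 0.11, adjusted p = 0.645). Its CPM did not overlap between the groups, but the fold change, which uses the TMM factors, was not called. Ddx3x, intact in both groups by label, was at 541, 472, 595, 512 and 345 CPM against 679, 774, 629, 645 and 560.3 CPM (log2 fold change −0.26 ± 0.18, adjusted p = 0.235). Gene counts do not show the alleles themselves.

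Genes with the widest fold changes that held with and without implant 5, with no overlap between the groups, were mostly high in implants 1 to 4 and near 0 in BPtch. Besides Phox2a, Lhx9 and Notum, the 10 widest rises included Ifi44l, Esyt3, A2m, Tacr3, Barx2 and Tent5b. A2m, which encodes the plasma protease inhibitor α2-macroglobulin, was at 45554, 14871, 44808, 16937 and 246 CPM in the implants and at 25.0, 9.32, 72.6, 5.39 and 33.2 CPM in the BPtch tumours (log2 fold change 9.92 ± 1.49, adjusted p = 4.39e-04). It thus took several percent of all counts in implants 1 and 3. Esyt3, a lipid transfer protein gene, read 532, 488, 784, 384 and 2.62 CPM against 0.109 to 0.923 CPM, and the homeobox gene Barx2 read 60.9, 69.6, 136, 35 and 0.785 CPM against 0.0547 to 0.145 CPM. Ifi44l, an interferon-induced gene, had 1 count in BPtch and a ratio of pooled levels of 2460 (95% counting interval 441 to 97221), and Tent5b had 3 counts and a ratio of 676 (231 to 3283). Ifi44l differed from the others named in being highest in implant 5, at 27.3 CPM against 3.18 to 14.0 CPM in implants 1 to 4.

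The 10 widest falls included Krt12, Nhlh1, Atoh1, Uty, Hsd11b2, Shisal2b, Myod1, Mroh2a and Draxin. Uty is Y-linked and followed the sex-linked genes above, at 0.0374 to 0.132 CPM in the implants, 0.437 CPM in BPtch tumour 1 and 30.7 to 39.7 CPM in the others. Hsd11b2, an enzyme that inactivates glucocorticoids and is expressed in granule progenitors, was at 0.352 to 0.629 CPM in the implants and at 164, 191, 74.6, 150.5 and 55.4 CPM in the BPtch tumours (log2 fold change −7.88 ± 0.46, adjusted p = 1.23e-05). Krt12, a keratin of the cornea, was at 0 to 0.126 CPM against 38.5, 15.2, 9.01, 43.9 and 46.8 CPM (log2 fold change −9.12 ± 0.75). Myod1, the master factor of skeletal muscle, was at 0.0490 to 0.347 CPM against 11.8 to 76.7 CPM. The summed level of the muscle, skin and fat list was 6.21 to 12.6 CPM in the implants and 5.69 to 8.05 CPM in the BPtch tumours.

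Across the implants, then, implant 3 and implant 5 departed from implants 1, 2 and 4 in different ways. Implant 3 had the highest summed level of Wnt targets (14711 CPM) and the lowest of oligodendrocyte markers (353 CPM, against 3586 to 6977 CPM in implants 1, 2 and 4), pan-neuronal genes (338 CPM, against 2171 to 2435 CPM) and interferon genes (207 CPM). Implant 5 had the lowest of Wnt targets, choroid plexus and fibroblast markers and the highest of granule neuron and microglia markers. These sums weight long and abundant genes most and are given as a description.

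A second contrast in the series carries the same model labels with a floxed Ddx3x in males. It holds 10 libraries labelled BDCP-FLY implants and 5 BPtchD-FLY tumours, none of them among the 10 libraries compared above. Libraries 1, 2 and 10 labelled BDCP-FLY share 1 code, and libraries 3, 4, 5, 6 and 8 another. The former held 0.731 to 1.64 CPM of Gabra6, the latter 42.0 to 350 CPM. Nothing in the labels says that libraries of 1 code came from separate tumours. The tests below count all 10 as separate, so their p-values carry this limit. The first check is Ddx3x, which was at 438 to 653 CPM in the libraries labelled BDCP-FLY (median 506) and at 77.1 to 149 CPM in BPtchD-FLY (median 107). Gabra6 was over 100 CPM in libraries 3, 5, 6, 7 and 8 labelled BDCP-FLY (350, 158, 178, 257 and 141 CPM) and in BPtchD-FLY tumour 5 (306 CPM). List results of this contrast, and of the test of the difference between contrasts, are not given again without these libraries. The libraries labelled BDCP-FLY also held both Xist, at 78.7 to 744 CPM, and Ddx3y, at 45.7 to 132 CPM. Their Axin2 was 13.5 to 22.5 CPM (median 16.2), below the 29.1 to 44.2 CPM of BPtchD-FLY. The level of Ddx3x goes against the floxed label, and that of Axin2 against the Wnt-model label, so no direction drawn from these libraries is read as that of the labelled genotype.

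In this contrast 10260 of 19193 genes (53.5%) were called, 29.2% higher and 24.2% lower in the libraries labelled BDCP-FLY. Of the genes called in both contrasts, 5797 in number, 4564 had the same direction and 1233 the opposite. Wnt targets were called higher in 3 and lower in 5 of 14 tested (median log2 fold change 0.14). Tcf7 was among those higher, at 50.7 to 114 CPM against 1.45 to 3.16 CPM, while Notum was at 0.757 to 1.66 CPM against 0.0805 to 3.30 CPM. Shh targets were lower in 9 of 12 and granule progenitor genes in 12 of 14, with Gli1 at 3.29 to 12.6 CPM against 145 to 349 CPM and Atoh1 at 0 to 0.251 CPM against 46.9 to 150.5 CPM. Interferon genes were higher in 14 of 14 (median log2 fold change 6.77), with Ddx58 at 134 to 426 CPM against 4.43 to 10.4 CPM. All 12 Hox genes tested were higher. The 14 listed summed to 0.967 to 4.14 CPM in BPtchD-FLY, so there was little room for a call in the other direction. Without the libraries of either group over 100 CPM of Gabra6, 9775 genes were called in this contrast.

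The difference between the contrasts was tested as an interaction over all 25 libraries, and 8181 of 20188 genes (40.5%) were called, 21.7% with a log2 fold change higher in the floxed pair and 18.8% lower. The log2 fold change of Wnt targets was lower in 13 of 15 tested, with Axin2 at −5.05 ± 0.61 (adjusted p = 4.30e-06) and Notum at −9.85 ± 1.37 (adjusted p = 1.51e-05). Endothelial markers were lower in 11 of 12, with Cdh5 at −1.90 ± 0.34 (adjusted p = 1.23e-04). Proliferation genes were higher in 18 of 18, with Mki67 at 1.31 ± 0.52 (adjusted p = 0.0477), and interferon genes in 14 of 14. Shh targets differed in 4 of 12, all lower, and granule progenitor genes in 1 of 14. Without the libraries of any group over 100 CPM of Gabra6, 8584 genes were called. Genotype, implant source and the mismatch of the libraries labelled BDCP-FLY with their labels cannot be told apart in this test.

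**Figure D5:**
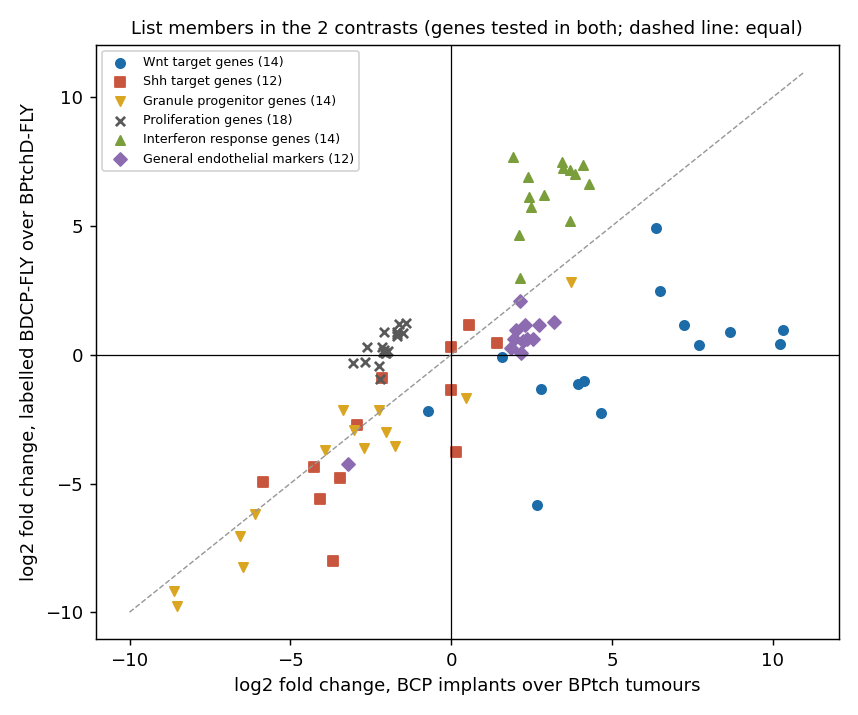
Log2 fold change of implants over Ptch1-model tumours for members of 6 gene lists, in the Ddx3x-intact contrast (x axis) and in the contrast of libraries labelled with floxed Ddx3x (y axis), 1 point per gene. Most granule progenitor genes lie below 0 on both axes, whereas the Wnt target Notum lies at 10.23 on the x axis and at 0.44 on the y axis.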

How the data were processed

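RNA of cerebella and tumours was extracted with Trizol and made into libraries with Illumina protocols, per the labels' protocols. The values deposited by the authors are raw read counts, 32075 genes by 257 libraries; the submitters' processing notes name HISAT2, featureCounts and the build GRCm38, while versions, annotation and strand setting were not given in the sources read. Groups came from the labels of genotype, age and tissue. The tests used edgeR 4.0.16 under R 4.3.3, with filterByExpr (minimum count 10, minimum total 15), TMM factors, a quasi-likelihood F-test of the 2 groups compared, two-sided, and Benjamini-Hochberg adjustment over all genes tested, with calls at an adjusted p under 0.05. A standard error is the size of a log2 fold change divided by the root of its F value. The difference between contrasts was an interaction in 1 fit of 4 groups. CPM are counts per 1000000 of the library total, without TMM factors. Of the gene IDs, 31711 matched a symbol and 364 did not; gene positions and exon overlaps used GENCODE M21. No 2 libraries of a tumour group agreed within sampling noise: the smallest chi-square per degree of freedom was 12.9. The tests were checked on simulated data.

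The members and the 35 gene lists were chosen with earlier results of these data known. Genes named are the model alleles, Gabra6 and sex-linked genes, the 10 widest rises and falls that held without the implants over 100 CPM of Gabra6 (mean log2 CPM of at least 2, no overlap, no predicted genes), and up to 6 members a list with the smallest adjusted p; some such genes are not reported here. Alternatives were DESeq2 1.42.0, DESeq2 size factors, library totals, no filter, all tumour groups in 1 fit, a replicate block, and leaving out each library or those over 100 CPM of Gabra6.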

Additional observations from a re-analysis of the deposited data

Results flagged for a closer look

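Among 256 sets of 5 values, 1 for each named gene in each group, 23 held a library apart from the other 4 by Dixon's test. Sets with low values throughout count among the 256 but were not tested. Chance flags about 1 in 20 sets tested, a rate that therefore cannot be set against 23 of 256. The genes are also not independent, since they share libraries. In BCP implant 5 the value apart was high for Gabra6 (575 CPM), Rbfox3 (310.0 CPM), Lhx1 (30.01 CPM), Barhl1 (16.0 CPM), Slc2a1 (178 CPM), Ptch1 (154 CPM) and Ccng2 (80.4 CPM), and low for Bmp2 (3.55 CPM) and Xist (7.44 CPM). The other 4 implants had at most 7.55 CPM of Gabra6 and at least 1536 CPM of Xist. The flag of Gabra6 repeats the value by which implant 5 was left out above. In implant 4 Ttr stood apart at 1901 CPM and Postn at 2705 CPM, in implant 2 Ccnd2 at 252 CPM and Insm1 at 16.2 CPM, and in implant 3 Vim at 1403 CPM.

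Among the BPtch tumours, tumour 1 stood apart for Xist (175 CPM), Uty (0.437 CPM), Gli3 (28.9 CPM) and Onecut2 (44.9 CPM). Tumour 5 stood apart for Dkk3 (40.1 CPM) and Olig3 (9.43 CPM), tumour 3 for Ttr (19.1 CPM), tumour 4 for Shisal2b (24.6 CPM) and tumour 2, on the low side, for Fabp7 (50.1 CPM).

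The log2 fold change of implants over Ptch1-model tumours differed between the Ddx3x-floxed and Ddx3x-intact labels for 8181 genes by the interaction test of edgeR. Of the genes examined for this, the difference was −5.05 ± 0.61 for Axin2, −4.01 ± 0.59 for Lef1, −9.85 ± 1.37 for Notum, 1.31 ± 0.52 for Mki67, 1.52 ± 0.40 for Ddx58, −1.90 ± 0.34 for Cdh5 and 2.42 ± 0.23 for Ddx3x. The adjusted p of these 7 ran from 3.75e-07 for Ddx3x to 0.0477 for Mki67.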

How the results depend on the processing

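The count of 10066 called genes was 12692 with DESeq2, 9994 with DESeq2 size factors, 10543 with library totals, 11354 without a filter, 12391 in a fit of all tumour groups, and 8842 to 11285 with 1 library left out. Library totals moved the median log2 fold change of all genes from 0.03 to −0.12. Leaving out 1 library gave 10035 to 11751 without implant 5, 9565 to 10564 for the libraries labelled floxed and 7335 to 8706 for the interaction. Replicate numbers are shared between groups but do not pair the samples. The deviations of same-numbered BCP and BPtch libraries from their own group means correlated at −0.01, −0.06, −0.43, −0.12 and 0.29. A replicate block gave 8367 calls with all implants, 8354 without implant 5, 6931 for the interaction and, on 10 libraries, 6615 in place of 10260 for the libraries labelled floxed; the cause was not tested. Of 2299 values of the 128 named genes under alternatives, 2248 stayed on their side of the threshold, 39 lost the call, 10 gained it and 2 reversed. Among the 2248, called values kept their direction, while values without a call in either fit count even if their sign changed. The 2 that reversed are both Gabra6 without implant 5, the same libraries under 2 settings. The log2 fold change of Gabra6, 1.22 with all libraries, was −4.15 without implant 5 and −1.99 without a call under the block. It ran from −4.15 to 1.93 with 1 library left out. Calls were lost for Gli2, Gli3, Ttr, Gfap, Mag, Nefm and Slc6a5, the last pair under the block alone. Without implant 4 the log2 fold change of Ttr was 0.81. At these depths levels near 0.1 CPM rest on a few counts a library.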

Other observations

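Of 6 forebrain markers with enough counts to be tested, 2 were called higher in the BCP implants and 3 lower, and without implant 5, 1 of 5 higher and 3 lower. Of 12 inhibitory neuron genes, 4 were called higher and 1 lower with and without implant 5. Among 9 markers of muscle, skin and fat, 3 were tested with all 5 implants and only Krt1, a keratin of the outer skin, was called higher.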
